A study of Rattus norvegicus with 15 samples.

Results

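The drug-metabolising cytochrome P450s of families 1 to 3 and their electron donor were measured in rat liver after treatment with an inhibitor of acetyl-CoA carboxylase. A gene belonged to the set when a probe set carried its symbol alone in the platform annotation and the symbol began with Cyp1a, Cyp1b, Cyp2 followed by a letter, or Cyp3a, or was Por. The brightest probe set, by its mean over all arrays, stood for each gene. This gave 33 genes out of 14217 with a probe set of their own on the array, namely 3 of family 1, 25 of family 2, 4 of family 3 and Por. The rule used no treatment contrast. A further 3 probe sets carried symbols of 2 genes of these families each and were left out, so that Cyp2b1, Cyp2b2, Cyp2d1 and Cyp2d5 are not analysed here.

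Male Sprague Dawley rats, 7 weeks of age at the outset, were kept on a high fat diet, 59% of energy coming from fat, and gavaged once a day for 6 weeks. The 3 groups of 5 liver samples, 1 array each, received vehicle (0.5% methylcellulose) or the inhibitor PF-04923503 at a dose of either 10 or 30 mg/kg. All groups ate the high fat diet, so no sample shows these genes on ordinary chow. The labels do not say whether the samples of a group came from separate rats, so each p-value speaks only of the spread among the samples measured. The 15 arrays had medians between 6.08 and 6.12 on the log2 scale and pairwise correlations between 0.989 and 0.996. The hepatocyte markers Alb, Apoa1, Ttr, Serpina1 and Fgb were measured, and their mean log2 value lay between 14.78 and 14.83 on every array. The highest value on any array was 15.38. So near the top of the scale, a steady mean cannot show that the samples held equal shares of hepatocytes. The comparisons ask whether the transcripts of the P450 system differ between treated and vehicle livers at each dose, and between the doses.

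Cytochrome P450s are haem proteins of the endoplasmic reticulum that insert an oxygen atom into drugs, steroids and fatty acids, and Por, the P450 oxidoreductase, passes them electrons from NADPH. In liver, family 1 is induced through the aryl hydrocarbon receptor (Ahr), Cyp2b and several Cyp2c genes through the constitutive androstane receptor (CAR, gene Nr1i3) and Cyp3a genes through the pregnane X receptor (PXR, gene Nr1i2). In rats, several Cyp2a, Cyp2c and Cyp3a genes differ between the sexes through the pattern of growth hormone release, and many P450s are most abundant around the central vein.

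Of the 33 genes, 26 passed the filter on low values, which required the fifth highest of the 15 values to exceed the median of all values, 6.10. These were 1 of the 3 genes of family 1 (Cyp1a2), 20 of the 25 of family 2, all 4 of family 3, and Por. The other 7 were Cyp1a1, Cyp1b1, Cyp2a3, Cyp2b12, Cyp2b21, Cyp2g1 and Cyp2s1, with log2 values between 3.55 and 5.75 in all samples. One of the 26, Cyp2j10, passed only through the 30 mg/kg group, with all 5 of its values there above the threshold and 3 of the other 10, so its test against that group is not independent of the filter. Values of different probe sets were not set against each other, since their probes differ.

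No gene of the set passed the test against vehicle at either dose, for both doses together or between the doses (limma, Benjamini-Hochberg adjusted over 9536 genes). Among the 26, the lowest adjusted p came to 0.209 for 10 mg/kg and 0.199 for 30 mg/kg. Of all genes, 0.105% were called at 10 mg/kg (10 genes), 0% at 30 mg/kg (0 genes, with 16.1% at an unadjusted p under 0.05), 0.147% for both doses together (14 genes) and 0% between the doses (0 genes, with 5.82% at an unadjusted p under 0.05). At an unadjusted p under 0.05 (limma) there were 5 of 26 genes of the set at 10 mg/kg, against 13.3% of all genes, and 3 of 26 at 30 mg/kg, against 16.1% of all genes. For both doses together there were 6 of 26, against 17.7% of all genes, and between the doses 2 of 26, against 5.82%. By this unadjusted threshold the means higher than vehicle at 10 mg/kg were those of Cyp2c7 and Cyp2d4 (4.49% of all genes), and the lower ones those of Cyp2e1, Cyp2c13 and Cyp2c22 (8.8%). Higher at 30 mg/kg was Cyp2j10 (5.27%), which passed the filter through that group, and lower were Cyp2e1 and Cyp2d2 (10.8%). For both doses together Cyp2c7 and Cyp2d4 were higher (5.31%) and Cyp2e1, Cyp2d2, Cyp2c13 and Cyp2c22 lower (12.4%), while between the doses Cyp2j10 was higher (2.57%) and Cyp2j4 lower (3.25%) at 30 mg/kg. The comparisons with vehicle share the vehicle samples. These shares of the set, 19.2%, 11.5%, 23.1% and 7.69%, lay near those of all genes. A stricter filter on the 10th highest value, which no group can pass alone, left 25 genes of the set without Cyp2j10, of which 2 had an unadjusted p under 0.05 at 30 mg/kg, against 16.1% of all genes, and 1 between the doses, against 5.76%.

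The intervals gave the range of mean differences in array signal that the spread between samples allowed. Cyp2c7, Cyp2c11, Cyp3a2 and Cyp2e1 had mean log2 values of 14.62, 14.33, 14.24 and 14.14, and the highest value on any array was 15.38. Differences so near the top of the scale can be read only within limits. For such bright genes the intervals do not bound changes in transcript amount. At 10 mg/kg the 95% confidence interval of the fold change lay within 1.5-fold either way for 21 of 26 genes, against 92.6% of all genes, and within 2-fold for 24 of 26, against 97.5%. For 30 mg/kg these were 23 of 26, against 93% of all genes, and 24 of 26, against 98%. For both doses together they were 24 of 26 (94.5%) and 24 of 26 (98.2%), and between the doses 21 of 26 (94.7%) and 24 of 26 (98.4%), with the share of all genes in parentheses. The exceptions at 2-fold were Cyp2c12 and Cyp3a9 at both doses. The median log2 difference from vehicle was 0.01 over the 26 genes and -0.02 over all genes at 10 mg/kg, and at 30 mg/kg it was -0.03 over the 26 genes as over all genes. In mean, 12 of 26 genes lay below vehicle at 10 mg/kg, against 58.2% of all genes, and 16 of 26 at 30 mg/kg, against 62%. Over both doses 13 of 26 lay below vehicle, against 60.3%, and 14 of 26 lay lower at 30 than at 10 mg/kg, against 54.5%. With each array centred on its median, the sign turned for Cyp2c6v1, Cyp2c11 and Cyp2d3 at 10 mg/kg and for Cyp2a2, Cyp2b3, Cyp2c23, Cyp2d3 and Cyp3a2 at 30 mg/kg, and with quantile normalisation for Cyp2a1, Cyp2b3 and Cyp2c6v1 at 10 mg/kg. The sizes of the differences, without their sign, had a median of 0.15 in the set and 0.07 over all genes at 10 mg/kg, and 0.13 and 0.08 at 30 mg/kg.

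**Figure D1:**
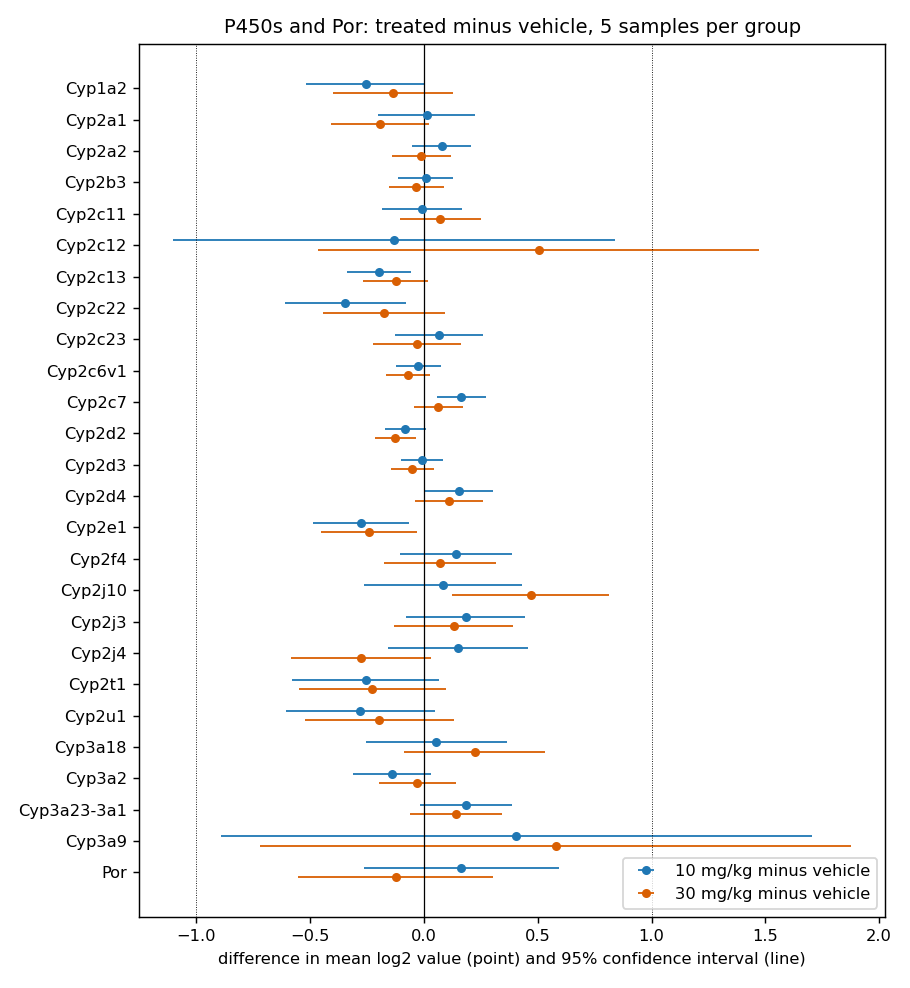
Each row is one gene of the set that passed the filter. Points are the difference in mean log2 value between treated and vehicle samples (5 per group), lines the 95% confidence interval, and dotted lines mark a 2-fold difference either way. Only the intervals of Cyp2c12 and Cyp3a9 cross a dotted line, and those of Cyp2e1 lie below 0 at both doses.

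Induction of family 1 is the usual sign of aryl hydrocarbon receptor ligands in liver, and no such pattern passed the test here. Cyp1a2, which oxidises caffeine and aromatic amines, had log2 values of 12.79, 12.83, 12.87, 12.53 and 12.82 in vehicle samples 1 to 5, 12.75, 12.45, 12.57, 12.50 and 12.28 at 10 mg/kg and 12.60, 12.29, 12.42, 12.84 and 13.00 at 30 mg/kg. All 10 mg/kg samples lay below 4 of the 5 vehicle samples, while the 30 mg/kg samples, from 12.29 to 13.00, reached past the vehicle samples on both sides. Vehicle was 1.19-fold (95% confidence interval 0.996 to 1.43) higher in mean than 10 mg/kg, and the adjusted p was 0.389 (limma); at 30 mg/kg the vehicle mean was 1.10-fold (95% confidence interval 0.916 to 1.32) higher, with an adjusted p of 0.608. Cyp1a1, which oxidises polycyclic hydrocarbons and is barely expressed in liver without an inducer, stayed below the filter in every sample, with 5.15, 4.59, 4.95, 5.08 and 5.13 in vehicle samples 1 to 5, 5.13, 5.13, 5.13, 5.40 and 5.35 at 10 mg/kg and 5.14, 5.04, 5.11, 5.08 and 5.30 at 30 mg/kg. The 3 groups overlapped, and vehicle sample 2 was the lowest of all. In a fit without the filter its log2 difference was 0.25 at 10 mg/kg (0.04 to 0.46, limma, unadjusted p = 0.0215, adjusted p = 0.365) and 0.15 at 30 mg/kg (-0.05 to 0.36). The same value, 5.134, stood in vehicle sample 5 and in 10 mg/kg samples 1, 2 and 3. Repeated values so low on the scale limit how far this difference and its p can be read. Cyp1b1, which is mainly expressed outside hepatocytes, had log2 values of 5.67, 5.41, 5.71, 5.65 and 5.67 in vehicle samples 1 to 5, 5.50, 5.68, 5.71, 5.65 and 5.54 at 10 mg/kg and 5.71, 5.75, 5.67, 5.64 and 5.57 at 30 mg/kg. Vehicle sample 2 was again the lowest, and the means were 5.62 ± 0.12, 5.62 ± 0.09 and 5.67 ± 0.07 (SD, n = 5 each). Ahr itself had a log2 difference of -0.02 (95% confidence interval -0.39 to 0.36) at 10 mg/kg and 0.26 (-0.12 to 0.63) at 30 mg/kg.

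Cyp2e1, which oxidises ethanol, acetone and fatty acids and is confined to hepatocytes around the central vein, had log2 values of 14.36, 14.46, 14.10, 14.32 and 14.30 in vehicle samples 1 to 5, 14.37, 14.03, 13.87, 13.86 and 14.04 at 10 mg/kg and 14.06, 13.92, 13.95, 14.11 and 14.29 at 30 mg/kg. At 10 mg/kg, 4 of the 5 samples lay below all vehicle samples, and at 30 mg/kg 3 of the 5 did, so that the groups overlapped at both doses. Vehicle was 1.21-fold (95% confidence interval 1.05 to 1.40) higher in mean than 10 mg/kg (limma, unadjusted p = 0.0132, adjusted p = 0.266) and 1.18-fold (95% confidence interval 1.02 to 1.37) higher than 30 mg/kg (unadjusted p = 0.0272, adjusted p = 0.253). It was the one gene of the set with an unadjusted p under 0.05 at both doses. At 30 mg/kg the unadjusted p passed 0.05 in 19 of 24 other settings, and it did not when vehicle sample 1, vehicle sample 2, 30 mg/kg sample 2 or 30 mg/kg sample 3 was left out, or with the arrays centred on their medians. The doses differed by 0.04 on the log2 scale (-0.17 to 0.25).

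The Cyp2c genes, which encode the bulk of the constitutive steroid and drug hydroxylases of rat liver, lay on both sides of vehicle. Cyp2c7, which hydroxylates retinoids and testosterone and is higher in female rats, had log2 values of 14.63, 14.61, 14.61, 14.37 and 14.52 in vehicle samples 1 to 5, 14.71, 14.71, 14.74, 14.72 and 14.69 at 10 mg/kg and 14.65, 14.67, 14.65, 14.53 and 14.57 at 30 mg/kg. The 5 samples at 10 mg/kg, from 14.69 to 14.74, lay above every vehicle and every 30 mg/kg sample. It was the only one of the 26 genes whose groups did not overlap at 10 mg/kg, against 2.44% of all genes, and between the doses, against 0.944%, while at 30 mg/kg there were 0 of 26, against 3.21%. The mean at 10 mg/kg was 1.12-fold (95% confidence interval 1.04 to 1.21) that of vehicle (limma, unadjusted p = 0.00547, adjusted p = 0.209). The mean at 30 mg/kg was 1.05-fold (95% confidence interval 0.969 to 1.13), with an adjusted p of 0.559.

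Cyp2c13, a male-specific steroid hydroxylase, had log2 values of 14.14, 14.03, 14.07, 14.09 and 14.08 in vehicle samples 1 to 5, 13.87, 13.72, 14.05, 13.74 and 14.03 at 10 mg/kg and 14.00, 13.90, 13.85, 14.05 and 13.99 at 30 mg/kg. The vehicle samples were tight, between 14.03 and 14.14, and 3 of the 5 samples at 10 mg/kg lay below all of them. Vehicle was 1.15-fold (95% confidence interval 1.04 to 1.27) higher in mean than 10 mg/kg (limma, unadjusted p = 0.00891, adjusted p = 0.242) and 1.09-fold (95% confidence interval 0.989 to 1.20) higher than 30 mg/kg (unadjusted p = 0.0797). The name of its probe set carries the suffix for probes shared between transcripts, so related Cyp2c transcripts may add to its value. Cyp2c22, a liver Cyp2c that hydroxylates retinoic acid in rat, had log2 values of 13.54, 14.04, 13.58, 13.81 and 13.78 in vehicle samples 1 to 5, 13.60, 13.10, 13.47, 13.44 and 13.41 at 10 mg/kg and 13.47, 13.58, 13.49, 13.99 and 13.33 at 30 mg/kg. At 10 mg/kg 4 of the 5 samples lay below every vehicle sample. Vehicle was 1.27-fold (95% confidence interval 1.06 to 1.53) higher in mean than 10 mg/kg (limma, unadjusted p = 0.0149, adjusted p = 0.276). Sample 4 at 30 mg/kg reached 13.99, and vehicle was 1.13-fold (95% confidence interval 0.938 to 1.36) higher in mean.

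Cyp2c11, the predominant steroid hydroxylase of the male rat liver, had treated means close to vehicle. Its log2 values were 13.95, 14.35, 14.37, 14.39 and 14.47 in vehicle samples 1 to 5, 14.19, 14.17, 14.37, 14.38 and 14.38 at 10 mg/kg and 14.35, 14.43, 14.32, 14.38 and 14.42 at 30 mg/kg, with vehicle sample 1 lower than all the rest. The mean at 10 mg/kg was 0.994-fold (95% confidence interval 0.879 to 1.12) and at 30 mg/kg 1.05-fold (95% confidence interval 0.930 to 1.19) that of vehicle. Without vehicle sample 1 the log2 differences were -0.10 and -0.02 in place of -0.01 and 0.07. In that sample 7 of the 16 measured acute phase genes were at their highest of all 15 samples and 1 at its lowest, and their part in the Cyp2c11 value was not tested. Cyp2c6v1, a phenobarbital-inducible form, had log2 values of 14.31, 14.13, 14.17, 14.18 and 14.20 in vehicle samples 1 to 5, 14.21, 14.08, 14.23, 14.17 and 14.16 at 10 mg/kg and 14.19, 14.19, 14.07, 14.10 and 14.08 at 30 mg/kg. The groups overlapped, and it differed by -0.02 on the log2 scale at 10 mg/kg (-0.12 to 0.07) and by -0.07 at 30 mg/kg (-0.17 to 0.03). Cyp2c23, an arachidonic acid epoxygenase, had log2 values of 12.82, 13.28, 13.26, 13.32 and 13.32 in vehicle samples 1 to 5, 13.42, 13.22, 13.29, 13.22 and 13.18 at 10 mg/kg and 13.29, 13.11, 13.11, 13.05 and 13.29 at 30 mg/kg. Vehicle sample 1 was again the lowest of all, and the other vehicle samples lay between 13.26 and 13.32. The differences were 0.07 (-0.13 to 0.26) and -0.03 (-0.22 to 0.16) on the log2 scale, and -0.03 and -0.13 without vehicle sample 1.

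The Cyp2d genes, which hydroxylate debrisoquine and many basic drugs, had small differences. Cyp2d2 had log2 values of 14.11, 14.21, 14.16, 14.20 and 14.14 in vehicle samples 1 to 5, 14.17, 14.06, 14.02, 14.07 and 14.10 at 10 mg/kg and 14.06, 13.98, 14.00, 14.04 and 14.12 at 30 mg/kg. At 30 mg/kg 4 of the 5 samples lay below every vehicle sample, and sample 5, at 14.12, lay above the lowest vehicle sample, at 14.11. Vehicle was 1.09-fold (95% confidence interval 1.03 to 1.16) higher in mean than 30 mg/kg (limma, unadjusted p = 0.00900, adjusted p = 0.199) and 1.06-fold (95% confidence interval 0.994 to 1.13) higher than 10 mg/kg. With each array centred on its median the log2 difference at 30 mg/kg was -0.06 in place of -0.13. Cyp2d3 differed by -0.01 at 10 mg/kg (-0.10 to 0.09) and by -0.05 at 30 mg/kg (-0.14 to 0.04) on the log2 scale. Cyp2d4, a form also found in brain, had log2 values of 8.50, 8.82, 8.69, 8.64 and 8.86 in vehicle samples 1 to 5, 8.87, 8.76, 8.79, 8.85 and 9.01 at 10 mg/kg and 8.82, 8.90, 8.72, 8.91 and 8.72 at 30 mg/kg. The groups overlapped, and the mean at 10 mg/kg was 1.11-fold (95% confidence interval 1.00 to 1.23) that of vehicle (limma, unadjusted p = 0.0479, adjusted p = 0.371). Its second probe set gave 0.16 against 0.15 on the log2 scale. In 12 of 24 other settings its unadjusted p no longer passed 0.05.

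**Figure D2:**
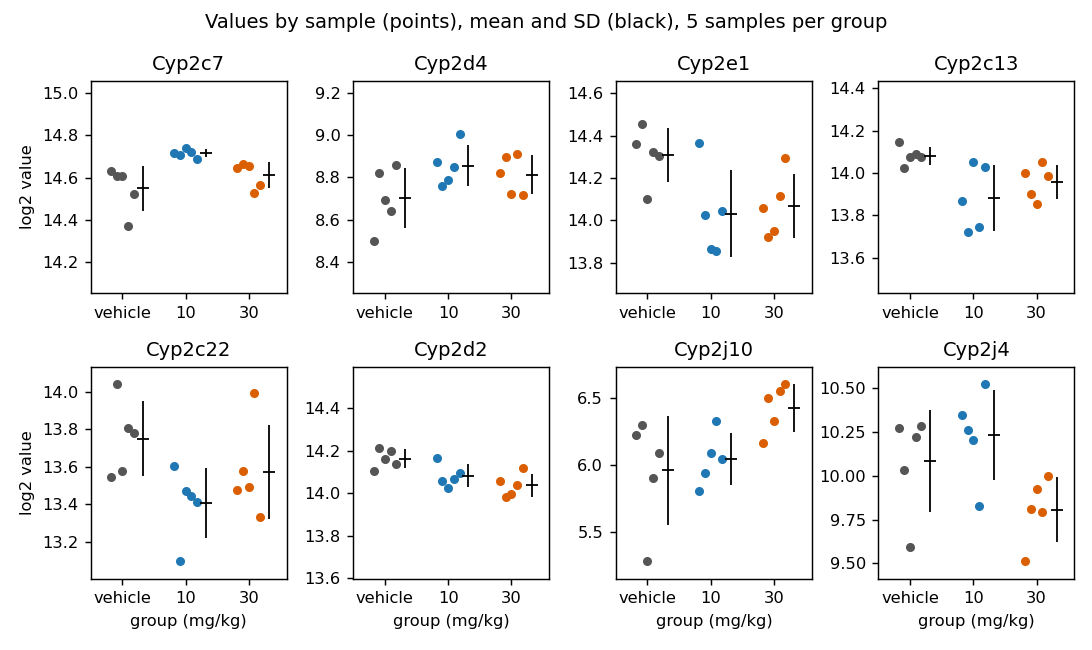
Log2 values of the 8 genes of the set with an unadjusted p under 0.05 in at least one comparison of single doses, 1 point per sample, with the group mean and SD in black. Vertical axes span at least 1 log2 unit and differ between panels. Cyp2j10 passed the filter only through the 30 mg/kg group. The Cyp2c7 values at 10 mg/kg lie above all vehicle values, and the other panels show overlapping groups.

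Of the Cyp2j genes, which encode fatty acid epoxygenases and hydroxylases, Cyp2j4 had an unadjusted p under 0.05 between the doses. Cyp2j4 had log2 values of 10.27, 10.03, 9.60, 10.22 and 10.29 in vehicle samples 1 to 5, 10.35, 10.26, 10.21, 9.83 and 10.52 at 10 mg/kg and 9.51, 9.81, 9.92, 9.79 and 10.00 at 30 mg/kg. The 30 mg/kg samples lay at or below 10.00, and 4 of the 5 samples at 10 mg/kg lay above that. The mean at 10 mg/kg was 1.34-fold (95% confidence interval 1.09 to 1.66) that at 30 mg/kg (limma, unadjusted p = 0.00996, adjusted p = 0.851). Against vehicle the log2 differences were 0.15 (10 mg/kg) and -0.27 (30 mg/kg), with neither interval clear of 0. Cyp2j10, a dim gene whose vehicle mean lay below the filter threshold, had log2 values of 6.23, 6.30, 5.28, 5.91 and 6.09 in vehicle samples 1 to 5, 5.80, 5.95, 6.10, 6.33 and 6.05 at 10 mg/kg and 6.17, 6.50, 6.33, 6.55 and 6.61 at 30 mg/kg. Vehicle sample 3 was the lowest, and 4 of the 5 samples at 30 mg/kg lay above every vehicle sample. As the gene entered the test through these samples, its differences of 0.47 from vehicle and 0.39 from 10 mg/kg on the log2 scale are only a description. Its unadjusted p under 0.05 in these 2 comparisons, counted above, was not independent of the filter. Without vehicle sample 3 the log2 difference at 30 mg/kg was 0.30 in place of 0.47. Cyp2j3, an arachidonic acid epoxygenase of rat heart and liver, had log2 values of 10.16, 10.42, 10.30, 10.16 and 10.12 in vehicle samples 1 to 5, 10.59, 10.44, 10.22, 10.20 and 10.63 at 10 mg/kg and 10.77, 10.11, 10.38, 10.44 and 10.12 at 30 mg/kg, with overlapping groups. It differed by 0.18 (-0.08 to 0.45) and 0.13 (-0.13 to 0.39) on the log2 scale at 10 and 30 mg/kg, and its second probe set gave 0.19 and 0.05.

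The 250 bases before the RefSeq transcription start on GRCr8 are shown for Cyp2c22, Cyp2d2 and Cyp2e1. These are the genes with an unadjusted p under 0.05 at either dose against vehicle, Cyp2j10 left out, for which this window lay wholly before the gene's span in the RefSeq gene table. For Cyp2c7, Cyp2c13 and Cyp2d4, which had such a p too, the window reached into the span of the gene. Capitals mark matches to TATAAA on the gene's strand or, on both strands, to GTTAAT (part of the HNF1 site), TGTTTAC (FoxA), AGGTCA (the core repeat bound by nuclear receptors such as CAR, PXR and HNF4), GCGTG (the core bound by the aryl hydrocarbon receptor) or TTCNNNGAA (STAT5), and matches of different motifs may overlap.
Cyp2c22, chr1:248980768-248981017, minus strand: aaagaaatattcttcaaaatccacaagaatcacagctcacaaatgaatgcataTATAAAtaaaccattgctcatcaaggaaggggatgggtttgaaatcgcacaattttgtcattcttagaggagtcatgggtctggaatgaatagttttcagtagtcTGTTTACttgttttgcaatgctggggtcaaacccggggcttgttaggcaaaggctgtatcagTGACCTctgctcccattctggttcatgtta
Cyp2d2, chr7:115819282-115819531, minus strand: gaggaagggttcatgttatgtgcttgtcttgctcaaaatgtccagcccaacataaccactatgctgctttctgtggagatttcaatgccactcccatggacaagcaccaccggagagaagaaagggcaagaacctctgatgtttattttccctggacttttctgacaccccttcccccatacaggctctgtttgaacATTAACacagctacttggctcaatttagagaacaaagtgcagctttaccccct
Cyp2e1, chr1:205269717-205269966, plus strand: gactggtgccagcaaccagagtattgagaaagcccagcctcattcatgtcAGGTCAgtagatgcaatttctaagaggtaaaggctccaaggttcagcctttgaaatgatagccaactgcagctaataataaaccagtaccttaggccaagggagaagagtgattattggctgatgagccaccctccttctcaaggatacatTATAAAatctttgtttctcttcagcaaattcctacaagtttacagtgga

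All 3 transcripts had lower means in treated than in vehicle livers. Cyp2e1 holds a TATAAA at base -49 and an AGGTCA at base -200. Cyp2c22 holds a TATAAA at base -197. The FoxA motif lies at base -92 of the same window. The nuclear receptor motif lies at base -30, on the opposite strand. The window of Cyp2d2 holds 1 match, to GTTAAT at base -53 on the opposite strand. A promoter was found for 30 of the 33 genes, and 14 of these windows reached into the gene's span. TATAAA was present in 9 of 30, against 8.06% of 33469 RefSeq promoters of the same length, and AGGTCA in 12 of 30, against 14.1%. TGTTTAC was present in 4 of 30, against 3.21%, GTTAAT in 3 of 30, against 6.45%, GCGTG in 4 of 30, against 25.9%, and TTCNNNGAA in 2 of 30, against 7.67%. The genes holding GCGTG were Cyp1b1, Cyp2t1, Cyp2u1 and Por. Many of these genes arose by duplication, and 18 of the 33 lie on chromosome 1, so these counts are descriptions of a family and not of independent genes.

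The Cyp3a genes, which oxidise most lipophilic drugs and are the classical targets of PXR, did not separate by treatment. Cyp3a23-3a1, the dexamethasone- and PXR-inducible form, had log2 values of 13.30, 13.68, 13.44, 13.30 and 13.74 in vehicle samples 1 to 5, 13.64, 13.55, 13.53, 13.90 and 13.77 at 10 mg/kg and 13.59, 13.77, 13.59, 13.61 and 13.61 at 30 mg/kg. All treated samples lay within the range of vehicle except sample 4 and sample 5 at 10 mg/kg and sample 2 at 30 mg/kg, which were higher. The means were 1.14-fold (95% confidence interval 0.990 to 1.31) and 1.10-fold (95% confidence interval 0.959 to 1.27) those of vehicle at 10 and 30 mg/kg, with adjusted p of 0.412 and 0.481 (limma). Cyp3a2, a male-specific form, had log2 values of 14.23, 14.35, 14.34, 14.21 and 14.33 in vehicle samples 1 to 5, 14.12, 14.25, 13.85, 14.17 and 14.38 at 10 mg/kg and 14.24, 14.15, 14.25, 14.35 and 14.35 at 30 mg/kg. Sample 3 at 10 mg/kg, at 13.85, was the lowest, and the other samples lay within the range of 14.12 to 14.38. It differed by -0.14 (-0.31 to 0.03) and -0.03 (-0.20 to 0.14) on the log2 scale. Cyp3a18, also higher in males, had log2 values of 12.75, 12.40, 13.13, 13.13 and 13.27 in vehicle samples 1 to 5, 12.86, 12.86, 12.79, 13.09 and 13.35 at 10 mg/kg and 13.05, 13.20, 13.16, 13.28 and 13.09 at 30 mg/kg. Its vehicle samples alone covered 12.40 to 13.27, and all 30 mg/kg samples but sample 4, at 13.28, lay inside that range. It differed by 0.05 (-0.26 to 0.36) and 0.22 (-0.09 to 0.53). For these 3 genes the intervals at both doses ended below 1.5-fold of vehicle, with the highest upper bound, 1.45-fold, in Cyp3a18 at 30 mg/kg.

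Cyp3a9, a form higher in female rats, varied most between samples. Its log2 values were 6.95, 10.64, 10.12, 10.03 and 11.18 in vehicle samples 1 to 5, 9.73, 9.50, 10.78, 10.66 and 10.29 at 10 mg/kg and 10.08, 10.04, 9.65, 11.15 and 10.90 at 30 mg/kg. Vehicle sample 1, at 6.95, stood apart, and the other 14 samples lay between 9.50 and 11.18. The means were 1.33-fold (95% confidence interval 0.539 to 3.26) and 1.49-fold (95% confidence interval 0.607 to 3.67) those of vehicle, and without vehicle sample 1 the log2 differences turned from 0.41 and 0.58 to -0.30 and -0.13. In the same sample the acute phase protein gene A2m, which encodes alpha-2-macroglobulin and is strongly induced by interleukin-6 in rat liver, reached 11.83 on the log2 scale, against 7.73 to 8.39 in vehicle samples 2 to 5 and 4.89 to 8.46 in treated samples. Lbp, which encodes the lipopolysaccharide binding protein, was also highest there, at 12.02 against 10.92 to 11.51 in the other vehicle samples. Its values ran from 10.34 to 10.69 at 10 mg/kg, below every vehicle sample, and from 10.65 to 11.30 at 30 mg/kg. Of the 16 measured acute phase genes, 7 were at their highest of all 15 samples in vehicle sample 1, namely A2m, Cp, Hp, Hpx, Lbp, Lcn2 and Orm1, and 11 at their highest of the vehicle samples. Crp was at its lowest of all 15 there, at 13.48, and Il1b at its lowest of the vehicle samples, at 6.57. The mean of the list was 12.42 in that sample and 11.82 to 12.08 in the other vehicle samples. The part of acute phase genes in the Cyp3a9 value was not tested.

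Among the other sex-dependent P450s, Cyp2c12, the female-specific steroid sulfate hydroxylase, passed the filter in these male livers and varied widely. Its log2 values were 11.49, 11.84, 11.75, 12.00 and 11.04 in vehicle samples 1 to 5, 9.85, 11.66, 10.81, 13.00 and 12.14 at 10 mg/kg and 11.96, 12.55, 11.67, 12.85 and 11.61 at 30 mg/kg. Its lowest and highest values both came from the 10 mg/kg group, in samples 1 and 4, and spanned 8.91-fold. The means differed from vehicle by -0.13 (-1.10 to 0.84) and 0.50 (-0.47 to 1.47) on the log2 scale, and the difference at 10 mg/kg was 0.28 without sample 1, 0.04 without sample 3 and -0.51 without sample 4 of that group. Cyp2a1, a testosterone hydroxylase higher in females, had log2 values of 12.55, 12.33, 12.15, 12.08 and 12.35 in vehicle samples 1 to 5, 12.47, 12.31, 12.38, 12.10 and 12.26 at 10 mg/kg and 12.20, 12.28, 11.89, 11.93 and 12.20 at 30 mg/kg, with overlapping groups and differences of 0.01 (-0.20 to 0.23) and -0.19 (-0.41 to 0.02). Cyp2a2, its male-specific relative, had log2 values of 13.37, 13.24, 13.47, 13.28 and 13.58 in vehicle samples 1 to 5, 13.49, 13.46, 13.50, 13.37 and 13.50 at 10 mg/kg and 13.37, 13.38, 13.29, 13.40 and 13.44 at 30 mg/kg. All treated samples lay within the vehicle range, and the differences were 0.08 (-0.05 to 0.21) and -0.01 (-0.14 to 0.12). Cyp2c12, Cyp2a1 and Cyp2c13 belong to gene clusters of close relatives, and cross-hybridisation between them cannot be told apart from their own signal.

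**Figure D3:**
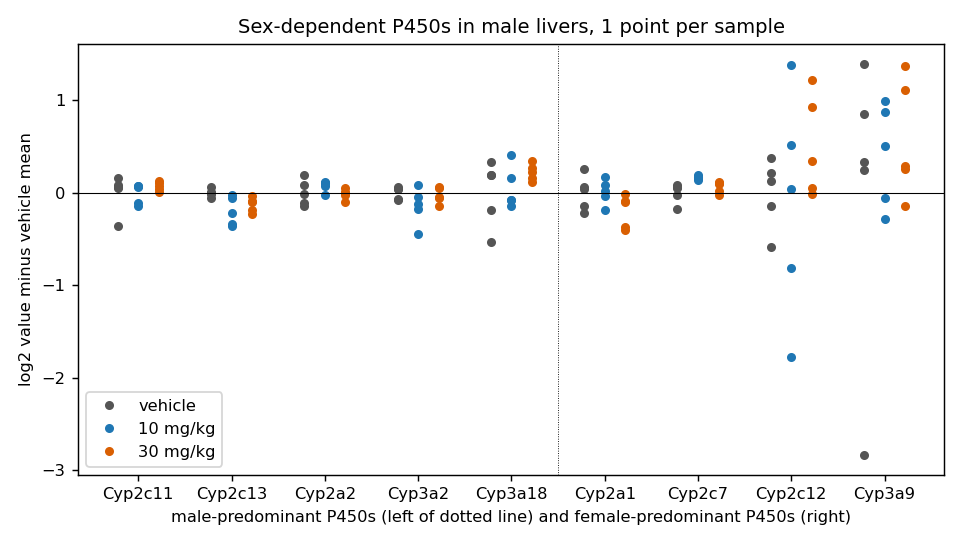
Log2 value of each sample minus the vehicle mean of the same gene, for 5 male-predominant P450s (left of the dotted line) and 4 female-predominant ones (right). The female-predominant Cyp2c12 and Cyp3a9 scatter over more than 3 log2 units, and the lowest point is vehicle sample 1 in Cyp3a9.

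Por, which all these enzymes depend on for electrons, did not differ from vehicle beyond its spread. Its log2 values were 9.81, 9.58, 8.99, 9.36 and 9.15 in vehicle samples 1 to 5, 9.98, 9.74, 8.98, 9.64 and 9.38 at 10 mg/kg and 9.18, 9.16, 9.83, 9.18 and 8.93 at 30 mg/kg. The groups overlapped throughout, with 1 sample at 30 mg/kg at 9.83 and the others at or below 9.18. The means were 1.12-fold (95% confidence interval 0.834 to 1.51) and 0.918-fold (95% confidence interval 0.682 to 1.24) those of vehicle, with adjusted p of 0.758 and 0.802 (limma), and the second Por probe set gave log2 differences of 0.12 and -0.12 against 0.17 and -0.12. Cyp2b3, a liver Cyp2b that phenobarbital does not induce, differed by 0.01 (-0.11 to 0.13) and -0.03 (-0.15 to 0.09). The remaining genes that passed the filter were Cyp2f4, which activates naphthalene, Cyp2t1 and the fatty acid hydroxylase Cyp2u1, with log2 differences between -0.28 and 0.14 and adjusted p of at least 0.456 over both doses.

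The spread between samples of 1 group differed widely within the set. Its pooled SD ran from 0.05 in Cyp2d2, at percentile 2 of all genes, to 0.80 in Cyp2c12 and 1.07 in Cyp3a9, at percentiles 99.4 and 99.7. The median SD was 0.17 for the 26 genes and 0.12 for all 9536 genes, and 18 of the 26 lay above the median of all genes. All 15 samples lay within a 2-fold range for 21 of the 26 genes, and within 1.5-fold for 10.

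**Figure D4:**
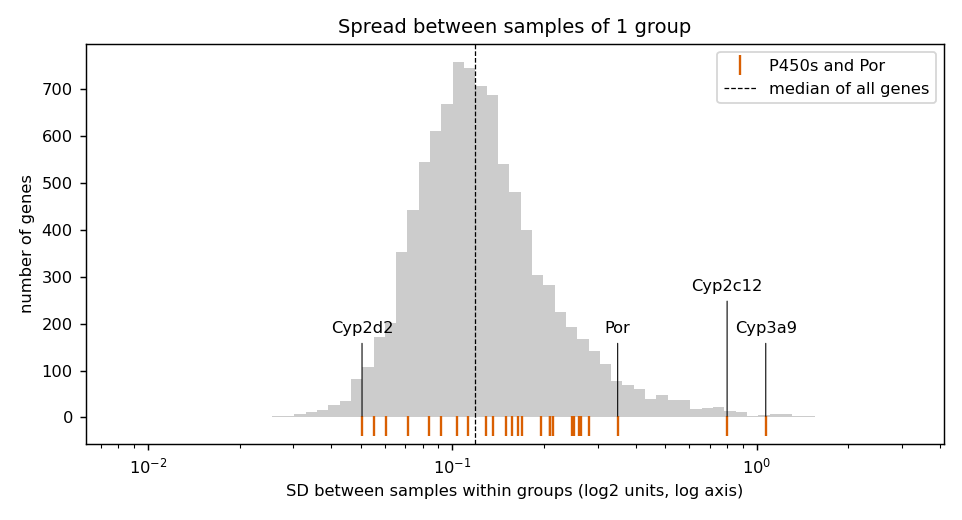
Histogram of the SD between samples of 1 group over all 9536 genes, on a logarithmic axis, with the 26 genes of the set as orange marks and the median of all genes as a dashed line. The marks run from Cyp2d2 at 0.05 to Cyp3a9 at 1.07.

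The 7 genes below the filter are known mostly from other tissues, such as Cyp2g1 from olfactory mucosa, Cyp2a3 from lung and nasal mucosa and Cyp2b12 from skin. In a fit without the filter 0 of the 7 were called, and the lowest adjusted p came to 0.365 for 10 mg/kg and 0.161 for 30 mg/kg (limma). At 10 mg/kg 2 of the 7, Cyp1a1 and Cyp2b21, had an unadjusted p under 0.05 (limma), against 11.3% of all genes in that fit. For Cyp1a1, 10 mg/kg samples 1, 2 and 3 shared 1 value. At 30 mg/kg 3 of the 7, Cyp2b21, Cyp2g1 and Cyp2s1, had such a p, against 16%. All these means were higher than vehicle. Cyp2s1, which is found mainly in epithelia outside the liver, averaged 5.31 ± 0.17 in vehicle, 5.44 ± 0.17 at 10 mg/kg and 5.62 ± 0.12 at 30 mg/kg (SD, n = 5 each). The 30 mg/kg samples, at 5.49 to 5.75, lay above the vehicle samples, at 5.01 to 5.44. Cyp2b21 averaged 4.27 ± 0.08, 4.43 ± 0.07 and 4.51 ± 0.14. Both lay below the filter threshold in every sample.

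The regulators of these genes were also not called. Of 16 genes for xenobiotic receptors and their partners, 16 were measured and 0 were called at either dose, with 2 and 3 at an unadjusted p under 0.05 at 10 and 30 mg/kg, against 13.3% and 16.1% of all genes. Nr1i3, the receptor CAR, had log2 values from 7.94 to 8.99 in vehicle, from 7.21 to 8.38 at 10 mg/kg and from 7.44 to 8.56 at 30 mg/kg, and the groups overlapped. The log2 difference at 10 mg/kg was -0.59 (-1.15 to -0.03, limma, adjusted p = 0.356), and the difference at 30 mg/kg was -0.33 (-0.89 to 0.23). Nr1i2, the receptor PXR, differed by 0.10 (-0.10 to 0.30) and -0.10 (-0.30 to 0.10). Of the 11 measured of 19 CAR and PXR targets outside the P450s, 0 were called at either dose, with median log2 differences of -0.14 and -0.08. At an unadjusted p under 0.05 (limma), 2 of the 11 were higher and 3 lower at 10 mg/kg, against 4.49% and 8.8% of all genes. At 30 mg/kg 1 was higher and 2 were lower, against 5.27% and 10.8%. Ugt2b1, a glucuronosyltransferase of that list, had log2 values of 11.27, 7.65, 10.52, 10.21 and 10.68 in vehicle samples 1 to 5, 11.38, 11.75, 11.46, 11.80 and 11.89 at 10 mg/kg and 10.61, 10.94, 11.42, 11.33 and 11.31 at 30 mg/kg, and its 10 mg/kg samples lay above all vehicle samples (log2 difference 1.59, 0.57 to 2.62, limma, adjusted p = 0.205). Without vehicle sample 2, at 7.65, the difference was 0.99. Of the AhR targets outside the P450s, 2 of 5 were measured and 0 were called at either dose.

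Genes of electron transfer and haem supply, with 16 of 18 measured, had 0 called members at either dose and medians of -0.03 at both. At an unadjusted p under 0.05 (limma), 2 were higher and 3 lower at 10 mg/kg, against 4.49% and 8.8% of all genes. At 30 mg/kg 0 were higher and 1 was lower, against 5.27% and 10.8%. Alad, a gene of this list, ran from 11.58 to 11.82 in vehicle, from 11.36 to 11.53 at 10 mg/kg without overlap, and from 11.28 to 11.73 at 30 mg/kg. Fech, the ferrochelatase that inserts iron into haem, had log2 values of 10.64, 10.40, 10.71, 10.92 and 10.93 in vehicle samples 1 to 5, 10.45, 10.24, 10.09, 10.47 and 10.21 at 10 mg/kg and 10.41, 10.57, 10.65, 10.72 and 10.69 at 30 mg/kg, a difference of -0.42 at 10 mg/kg (-0.65 to -0.20, limma, adjusted p = 0.132) and of -0.11 at 30 mg/kg, and the groups overlapped at both doses. Alas1, the rate-limiting enzyme of haem synthesis in liver, differed by -0.14 (-0.60 to 0.33) and -0.27 (-0.73 to 0.20). Markers of pericentral hepatocytes, where Cyp2e1 and Cyp1a2 are found, had 9 of 13 measured and 0 called, with medians of -0.02 and -0.15. Glul, the glutamine synthetase of the innermost pericentral cells, had log2 values of 11.94, 11.85, 11.31, 11.51 and 11.88 in vehicle samples 1 to 5, 11.12, 10.67, 11.23, 11.18 and 11.21 at 10 mg/kg and 10.61, 11.80, 11.07, 11.49 and 11.54 at 30 mg/kg. Its 10 mg/kg samples lay below all vehicle samples, with a difference of -0.62 (-1.03 to -0.20, limma, adjusted p = 0.223). Lhpp, another gene of that list, went the other way in mean, from 9.51 to 9.74 in vehicle, from 9.81 to 10.09 at 10 mg/kg without overlap, and from 9.62 to 9.98 at 30 mg/kg, with a difference of 0.30 at 10 mg/kg (0.14 to 0.47, limma, adjusted p = 0.134). Periportal markers had 11 of 13 measured and 0 called, with medians of 0.18 and 0.11. In mean, 1 and 2 of the 11 lay below vehicle, against 58.2% and 62% of all genes. At an unadjusted p under 0.05 (limma), 3 were higher and 0 lower at each dose, against 4.49% and 5.27% of all genes higher. Of the 9 measured pericentral markers 1 was higher and 2 were lower at 10 mg/kg, against 4.49% and 8.8% of all genes. At 30 mg/kg 1 was higher and 0 lower, against 5.27% and 10.8%. The part of these zonal markers in the Cyp2e1 values was not tested.

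Sex-dependent transcripts outside the set and genes of growth hormone signalling, with 10 of 16 measured, had 0 called members at either dose and medians of -0.01 and 0.23. Acute phase genes, with 16 of 18 measured, had 0 called members and medians of -0.01 and 0.03. At an unadjusted p under 0.05 (limma), 1 was higher and 3 were lower at 10 mg/kg, against 4.49% and 8.8% of all genes. At 30 mg/kg 1 was higher and 1 lower, against 5.27% and 10.8%. Crp at 30 mg/kg, from 13.79 to 14.01, lay above all vehicle samples, from 13.48 to 13.74. Lbp at 10 mg/kg, from 10.34 to 10.69, lay below all of them, from 10.92 to 12.02. Markers of Kupffer cells and macrophages, with 7 of 8 measured, had 0 called members and medians of -0.39 and -0.34. All 7 were lower than vehicle in mean at both doses, against 58.2% and 62% of all genes. At an unadjusted p under 0.05 (limma), 4 of the 7 were lower at 10 mg/kg and 1 at 30 mg/kg, against 8.8% and 10.8% of all genes. The mean log2 level of the 7 ran from 8.80 to 9.34 in vehicle, from 8.32 to 9.05 at 10 mg/kg and from 8.25 to 9.29 at 30 mg/kg. Stellate cell markers (6 of 6 measured), endothelial markers (4 of 6) and blood markers (3 of 6) had medians of -0.24, -0.25 and -0.41 at 10 mg/kg and of -0.15, -0.19 and -0.28 at 30 mg/kg. In the same order, 3, 1 and 1 were lower at an unadjusted p under 0.05 (limma) at 10 mg/kg, and 0, 1 and 0 at 30 mg/kg. Of cholangiocyte markers 1 of 5 was measured. Fewer cells of a type and less RNA per cell cannot be told apart in whole liver.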

How the data were processed

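RNA of 15 rat liver samples was hybridised to 1-colour Affymetrix arrays, 1 per sample. The deposited values are log2 intensities that the authors had summarised to 1 value for each probe set and normalised across arrays. The submitters' processing notes name RMA, GCRMA 2.12.1 and limma 2.14.7 without saying which step each served. Background correction and summarisation limit how far differences near the bottom and the top of the scale can be read.

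Of 31099 probe sets, 57 controls were left out. The platform annotation gave 20826 probe sets 1 symbol, 436 several and 9780 none, and probe sets with several symbols were named to no gene. A probe set was kept when the fifth highest of its values exceeded the median of all non-control values, and the brightest kept probe set stood for a gene, which left 9536 genes. A linear model with 3 group means (lmFit and eBayes of limma 3.58.1, run under R 4.3.3) was fitted, with Benjamini-Hochberg adjustment over all genes and a call at an adjusted p under 0.05. The contrasts were each dose against vehicle, both doses against vehicle and 30 against 10 mg/kg, and the fit was tested on simulated data. Genes named with all their values were those with an unadjusted p under 0.05 or groups without overlap, and a list of well-known P450s fixed by name; list genes were at most 4 per list by their p, with Nr1i2, Nr1i3, Ahr, Alas1 and Glul. The genes of the set and the lists were chosen with earlier results of these data known. Alternatives changed the filter, the probe set per gene, the features tested, the normalisation, the variance model, the samples fitted and the use of the replicate number, and left out each sample in turn. Promoters came from RefSeq on GRCr8, matched by gene. The number of arrays limits the precision.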

Additional observations from a re-analysis of the deposited data

Results flagged for a closer look

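For each of the 33 genes and 3 groups of 5 samples, the gap between the highest or lowest sample and its nearest neighbour was set against the range of the group. In 11 of 99 groups 1 sample stood apart at the 95% level of Dixon's test, where chance gives about 1 in 20. Vehicle sample 1 accounted for 4 of the 11. It was the lowest vehicle sample in Cyp3a9, at 6.95 against 10.03 to 11.18 in the others, in Cyp2c11, at 13.95 against 14.35 to 14.47, and in Cyp2c23, at 12.82 against 13.26 to 13.32. It was the highest in Cyp2b21, at 4.42 against 4.22 to 4.25, a gene below the filter.

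Among the other vehicle samples, sample 4 was low in Cyp1a2, at 12.53 against 12.79 to 12.87. Vehicle sample 2 was low in Cyp1b1, at 5.41 against 5.65 to 5.71, and vehicle sample 3 in Cyp2s1, at 5.01 against 5.33 to 5.44. At 10 mg/kg, sample 3 was high in Cyp2b21, at 4.54 against 4.38 to 4.42. At 30 mg/kg, sample 2 was high in Cyp3a23-3a1, at 13.77 against 13.59 to 13.61, sample 3 was high in Por, at 9.83 against 8.93 to 9.18, and sample 5 was low in Cyp2b12, at 3.64 against 3.78 to 3.83.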

How the results depend on the processing

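The number of P450 genes called was 0 in all 4 comparisons under every alternative run, each sample left out included (limma). The lowest adjusted p of any of them was 0.0843 at 10 mg/kg, 0.152 at 30 mg/kg, 0.0715 for both doses and 0.634 between the doses. The count at an unadjusted p under 0.05, examined after seeing the data, ran from 4 to 8 at 10 mg/kg when 1 sample was left out (5 with all samples, 8 without vehicle sample 5), from 2 to 5 at 30 mg/kg (3 with all, 5 without vehicle sample 3 or 5) and from 4 to 7 for both doses (6 with all). Between the doses it ran from 1 to 4 (2 with all samples): 4 without vehicle sample 4 or 10 mg/kg sample 4, and 1 when sample 1 or 2 of the 10 mg/kg group or sample 4 or 5 of the 30 mg/kg group was left out. It was 1 with the stricter filter, which left out Cyp2j10, and 4 when only the 2 groups compared were fitted. That last alternative was not run for both doses, which use all groups. Of the 26 genes, 10 at 10 mg/kg and 8 at 30 mg/kg changed sign under at least 1 alternative. The genes at an unadjusted p under 0.05 kept their sign under every alternative. They were chosen by that p in the same data, so a kept sign was largely given by the choice and is no measure of stability.

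The background was less stable. Of all genes, 10 were called at 10 mg/kg, against 3 without a filter, 16 with all probe sets, 14 with median centring, 0 with the replicate block and 0 to 26 when 1 sample was left out. At 30 mg/kg 0 were called, against 10 with all probe sets and 0 to 5 when 1 sample was left out. For both doses 14 were called, against 25 with all probe sets, 36 with median centring, 3 with the replicate block and 0 to 85 when 1 sample was left out. Between the doses 0 were called throughout, with 5.82% of genes at an unadjusted p under 0.05 (limma). The causes were not tested. To look for pairing, the group mean of each gene was subtracted, and the remainders were correlated between samples of different groups. The 15 such pairs with the same number correlated at -0.07 to 0.19, with a median of 0.05 and 3 above 0.1. The 60 such pairs with different numbers correlated at -0.21 to 0.22, with a median of -0.01 and 9 above 0.1. The ranges overlapped, and the difference between the medians was not tested. With the replicate number as a block 0 P450 genes were called, and the counts at an unadjusted p under 0.05 were 4, 4, 5 and 3 in the order above.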

Other observations

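The 3 probe sets that carry the symbols of more than 1 P450 gene, and so stand for none, had log2 differences from vehicle of 0.03, -0.16 and -0.22 at 10 mg/kg and of -0.09, -0.09 and -0.66 at 30 mg/kg. The lowest unadjusted p among them was 0.0814 (limma).

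The difference between the 3' and 5' control probe sets, a sign of RNA quality, averaged 0.39, 0.34 and 0.37 for Gapdh, 1.74, 1.73 and 1.72 for beta-actin and 1.83, 1.93 and 1.80 for hexokinase in the vehicle, 10 and 30 mg/kg groups on the log2 scale.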
